A study of Homo sapiens with 3 samples.

Results

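Tight junctions are the uppermost seals between neighbouring epithelial cells. Claudins form their strands and set which ions and solutes pass between cells, occludin and tricellulin are further membrane proteins of the strands, and the zonula occludens scaffolds tie these proteins to actin. In squamous epithelium such as that of the oesophagus the junctions help to form the barrier of the upper cell layers. Expression of this gene group was followed on oligonucleotide arrays in KYSE180, a cell line from a human squamous cell carcinoma of the oesophagus. The members were chosen by name as 9 genes, and all probe sets with exactly 1 of those symbols were used. This gave 18 probe sets for 8 genes, of 49293 probe sets on the array, and F11R, which encodes the junctional adhesion molecule JAM-A, was not analysed here.

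There were 3 arrays, 1 for each group. They held RNA of KYSE180 cells labelled control, KYSE180 cells given a vector for the long non-coding RNA HOTAIR with Polyfect (the LZRS_HOTAIR vector), and cells given a mixture of siRNAs against HOTAIR with Lipofectamine2000, at 100 pmol. RNA of transfected cells was collected at 48 h. The control's label does not say whether those cells received a reagent or the negative control RNA, and the siRNA sample's source name speaks of a HOTAIR cell line while its other labels give KYSE180. The arms therefore differed in reagent and in type of nucleic acid as well as in HOTAIR, and these cannot be told apart. The level of HOTAIR, the targeted RNA, was not analysed here, so neither arm was checked by its target and directions are those of the labelled arms. Each group is 1 array of the same line, so the differences below come without replicates and without p-values. Values are log2 signals made with RMA, a method that combines the probes of a probe set, and 1 unit of difference is a 2-fold change. Medians were 5.27 on the control, 5.23 on the vector and 5.25 on the siRNA array, and a gene was called above the filter where its mean reached 5.28, the median over all probe sets. The only spread that could be measured was the SD between probe sets of the same gene, taken over probe sets above the filter. Probe sets of a gene share their cells and arrays, so it does not measure variation between cultures or transfections. Over 5982 genes this SD was 0.36 when vector was compared with control, 0.39 when siRNA was compared with control and 0.21 between the arms. Both comparisons with control share the control array.

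The line was checked against epithelial markers. All 5 epithelial markers measured lay far above the filter, with signals from 11.31 to 13.38 over the 3 arrays, and 3 further ones were not used here. All 6 fibroblast, 5 endothelial and 4 leukocyte markers lay below the filter on their means. EPCAM, a marker of epithelial cells, was 12.37 in control, 12.58 with vector and 12.65 with siRNA, and CDH1, the epithelial cadherin, was 11.58, 11.70 and 11.87. The basal keratin genes KRT5 and KRT14 were lowest with vector, at 12.64, 11.72 and 12.47 and at 13.38, 12.22 and 13.01, and SFN, which encodes stratifin, was lowest with siRNA, at 12.03, 11.59 and 11.31.

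The claudins CLDN4 and CLDN7 and the occludin gene OCLN were chosen by their differences, and the bases before their start sites are shown. All their probe sets lay above the filter and, within each gene, had the same sign in siRNA minus control. The sequences are the 250 bases upstream of the start in RefSeq on GRCh38.p14, 5′ to 3′ along each gene's own strand. The CLDN4 window is chr7:73830746-73830995 on the plus strand, the CLDN7 window chr17:7262479-7262728 on the minus strand and the OCLN window chr5:69492297-69492546 on the plus strand. Capitals mark the E-box CACCTG on either strand (CAGGTG when read on the other), a core that the repressors of the SNAI and ZEB families can bind.
CLDN4: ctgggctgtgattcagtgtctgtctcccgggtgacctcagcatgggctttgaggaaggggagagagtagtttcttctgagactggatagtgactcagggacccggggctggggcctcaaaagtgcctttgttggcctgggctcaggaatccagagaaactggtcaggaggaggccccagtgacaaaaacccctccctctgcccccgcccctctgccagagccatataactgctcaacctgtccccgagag
CLDN7: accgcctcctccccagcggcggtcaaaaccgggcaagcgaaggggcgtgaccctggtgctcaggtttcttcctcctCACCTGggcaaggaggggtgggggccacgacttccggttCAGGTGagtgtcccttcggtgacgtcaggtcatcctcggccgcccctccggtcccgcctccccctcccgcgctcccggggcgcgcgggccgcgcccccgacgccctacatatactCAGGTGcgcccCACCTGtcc
OCLN: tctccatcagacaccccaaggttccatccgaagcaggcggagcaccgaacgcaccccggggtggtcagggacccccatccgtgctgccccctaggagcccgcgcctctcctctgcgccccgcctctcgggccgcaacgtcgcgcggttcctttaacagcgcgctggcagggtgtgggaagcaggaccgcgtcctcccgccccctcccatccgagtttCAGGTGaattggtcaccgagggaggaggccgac
The CLDN7 window held 4 such E-boxes, at 174, 135, 20 and 9 bases before the start, and the OCLN window 1, at 33 bases. The CLDN4 window held 0. RefSeq gave CLDN7 a start further upstream too, whose 250 bases held 0, and OCLN a start further downstream, whose 250 bases (chr5:69492540-69492789) held 1, at 133 bases. Over the 14 start sites of the 8 genes 5 windows held the E-box, against 17.5% of all 35116 windows of this length. Both windows of OCLN were among the 5, and the background was not matched for base content. The run GGGCGG, made of G and C only, was in 10 of the 14, against 42.6% of all windows. The grainyhead motif AACCGGTT, and its looser form AACNNGTT that includes it, were in 0 of the 14, against 0.117% and 2.999% of all windows. A match is a run of letters and no site of binding, and the lack of a match says only that these letters are not in the window.

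Claudins were described first. CLDN4 and CLDN7, strand-forming claudins found in many epithelia, were lower in siRNA cells than in control and vector cells, where they were nearly level. CLDN7, on its 1 probe set, gave a log2 signal of 9.89 in control and 9.90 in vector cells and 8.97 in siRNA cells. The siRNA array was the low one. Against control CLDN7 was 1.90-fold lower in siRNA cells (-0.93 on the log2 scale) and differed by 0.01 in vector cells, and vector minus siRNA was 0.94.

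CLDN4 was measured by 3 probe sets, all above the filter. The brightest read 8.36 in control, 8.51 with vector and 7.57 with siRNA. The other probe sets read 8.34, 8.38 and 7.69, and 6.77, 7.02 and 5.94, in the same order of arrays. On each of the 3 the siRNA array was lowest and the vector array highest. The mean over these probe sets of siRNA minus control was -0.76 ± 0.092 (SD, n = 3 probe sets). For vector minus control it was 0.14 ± 0.11, and vector minus siRNA gave 0.90 ± 0.19. Probe sets share their cells, so this SD covers only how well the probes of CLDN4 agree. The siRNA differences were larger than the SD between probe sets of a gene, and the vector minus control differences were smaller. The latter turned to -0.06 for CLDN4 and -0.11 for CLDN7 after repeated quantile normalization, so no direction is given to them.

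Among the 10917 genes above the filter, CLDN7 stood above 98.1% in vector minus siRNA and above only 2.97% in siRNA minus control. For the brightest probe set of CLDN4 these shares were 98.1% and 6.91%. Under the alternatives run, CLDN4 ranged from -0.93 to -0.62 and CLDN7 from -1.01 to -0.76 in siRNA minus control. In vector minus siRNA they ranged from 0.85 to 0.93 and from 0.89 to 0.94. CLDN4 could not be followed without probe sets open to cross-hybridisation, since all 3 of its names end in _s_at, which marks probes shared by several transcripts.

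CLDN12, a claudin linked to calcium passage, gave probe sets that disagreed. The bright one read 7.17 in control, 8.16 with vector and 8.33 with siRNA, with control the low array. That is 1.99-fold higher in vector cells (0.99) and 2.24-fold higher in siRNA cells (1.17). The dim probe set read 4.60, 4.34 and 4.23, with control the high array and differences of -0.26 and -0.37. It lay below the filter on its mean. The direction of CLDN12 against control therefore rested on 1 probe set, whose name ends in _s_at. Vector minus siRNA was -0.17 on the bright and 0.10 on the dim probe set, both within the SD between probe sets (0.21).

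CLDN1, the claudin without which the epidermal barrier of mice fails, had 4 probe sets, all below the filter. The brightest read 4.14 in control, 5.08 with vector and 5.22 with siRNA. The next read 4.01, 4.50 and 4.31, and the last probe sets read 3.58, 3.39 and 3.54, and 2.87, 2.86 and 2.88. The first of these was higher in both arms, by 0.95 and 1.08, and the 2 dimmest barely moved. The mean over the 4 was 0.31 ± 0.51 (SD, n = 4 probe sets) for vector and 0.34 ± 0.52 for siRNA cells against control, so the differences did not exceed their spread.

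**Figure D1:**
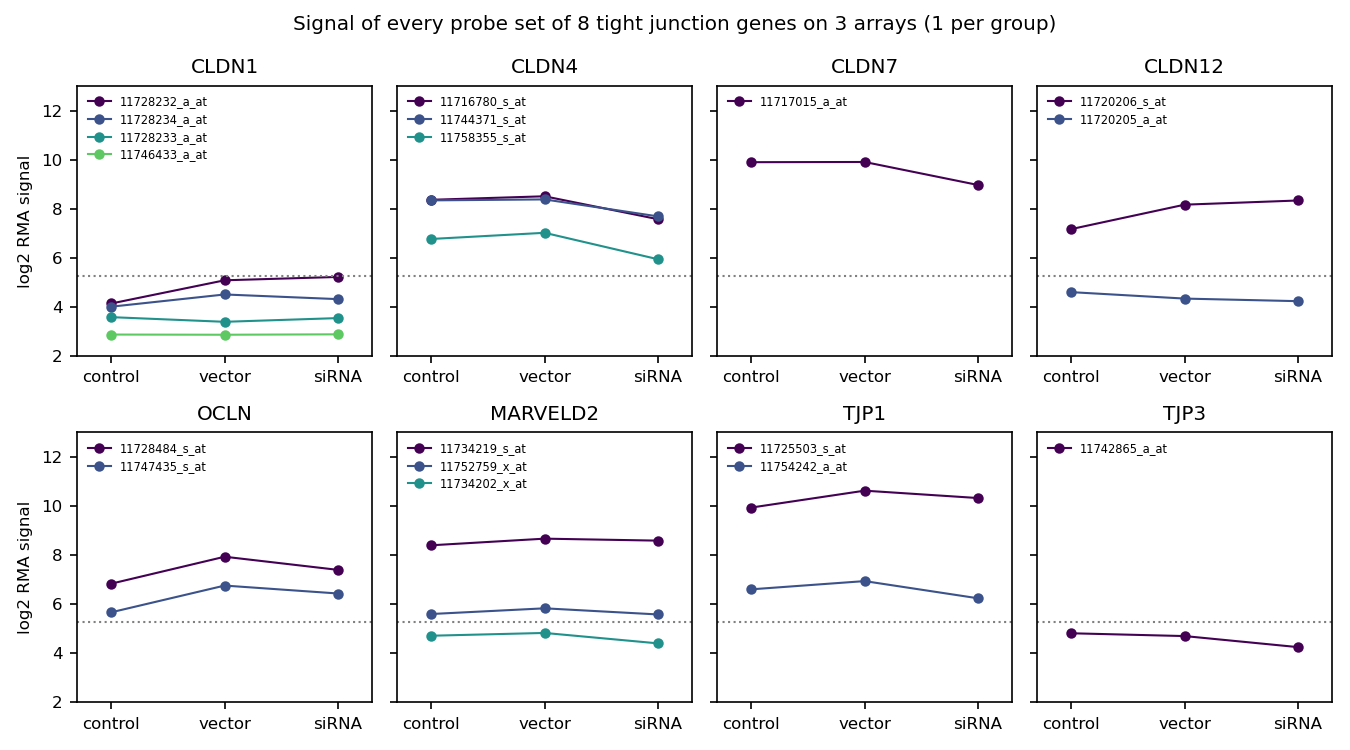
Log2 RMA signal (vertical axis) of each probe set of the 8 genes on the control, vector and siRNA arrays (horizontal axis, 1 array each). Points are single array values, lines join the values of 1 probe set and imply no order, and the dotted line is the filter at 5.28. CLDN4 and CLDN7 are lowest on the siRNA array and OCLN is lowest on the control array, on every probe set shown for them.

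The membrane proteins with a MARVEL domain came next. OCLN encodes occludin, a strand protein that helps to seal and regulate the junction. Its brighter probe set read 6.84 in control, 7.94 with vector and 7.40 with siRNA, and the other read 5.67, 6.76 and 6.44. Both placed the control lowest, the vector highest and the siRNA array between them. On the brighter probe set OCLN in vector cells was 2.14-fold above control. Among the genes above the filter it stood above 86.1% in vector minus control, so larger differences were common there. The shares were 76.6% in siRNA minus control and 94.5% in vector minus siRNA. Over both probe sets vector minus control was 1.09 ± 0.0058 (SD, n = 2 probe sets), siRNA minus control 0.66 ± 0.14 and vector minus siRNA 0.43 ± 0.15. Each exceeded the SD between probe sets over all genes. Repeated quantile normalization gave 0.90 for vector minus control of OCLN, just short of 2-fold. Both names end in _s_at.

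MARVELD2 encodes tricellulin, which seals the corners where cells meet, and it lies beside OCLN among the protein-coding genes of RefSeq. Its brightest probe set read 8.40 in control, 8.67 with vector and 8.59 with siRNA. The other probe sets read 5.60, 5.83 and 5.58, and 4.72, 4.83 and 4.41. The vector array was highest on all 3, by 0.21 ± 0.082 (SD, n = 3 probe sets) over control, which is within the SD of 0.36. The siRNA minus control differences went both ways, from -0.31 to 0.19. RAD17, a checkpoint gene on the other side of MARVELD2, was 7.37, 9.16 and 9.27, so it differed from control by 1.80 and 1.90. The 2-fold difference of OCLN was thus not seen for MARVELD2 next to it, and RAD17 differed more than either.

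The scaffolds were TJP1 and TJP3, which encode ZO-1 and ZO-3. The bright probe set of TJP1 read 9.94 in control, 10.63 with vector and 10.33 with siRNA, and the other read 6.61, 6.94 and 6.24. Vector was the highest array on both, by 0.51 ± 0.25 (SD, n = 2 probe sets) over control and by 0.50 ± 0.28 over siRNA cells. Against control the siRNA differences had opposite signs, 0.39 and -0.37, so no direction can be given. The single probe set of TJP3 lay below the filter, at 4.82 in control, 4.70 with vector and 4.25 with siRNA. Its siRNA array was lowest, by 0.56 against control and 0.45 against vector cells, at a signal where RMA compresses differences.

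**Figure D2:**
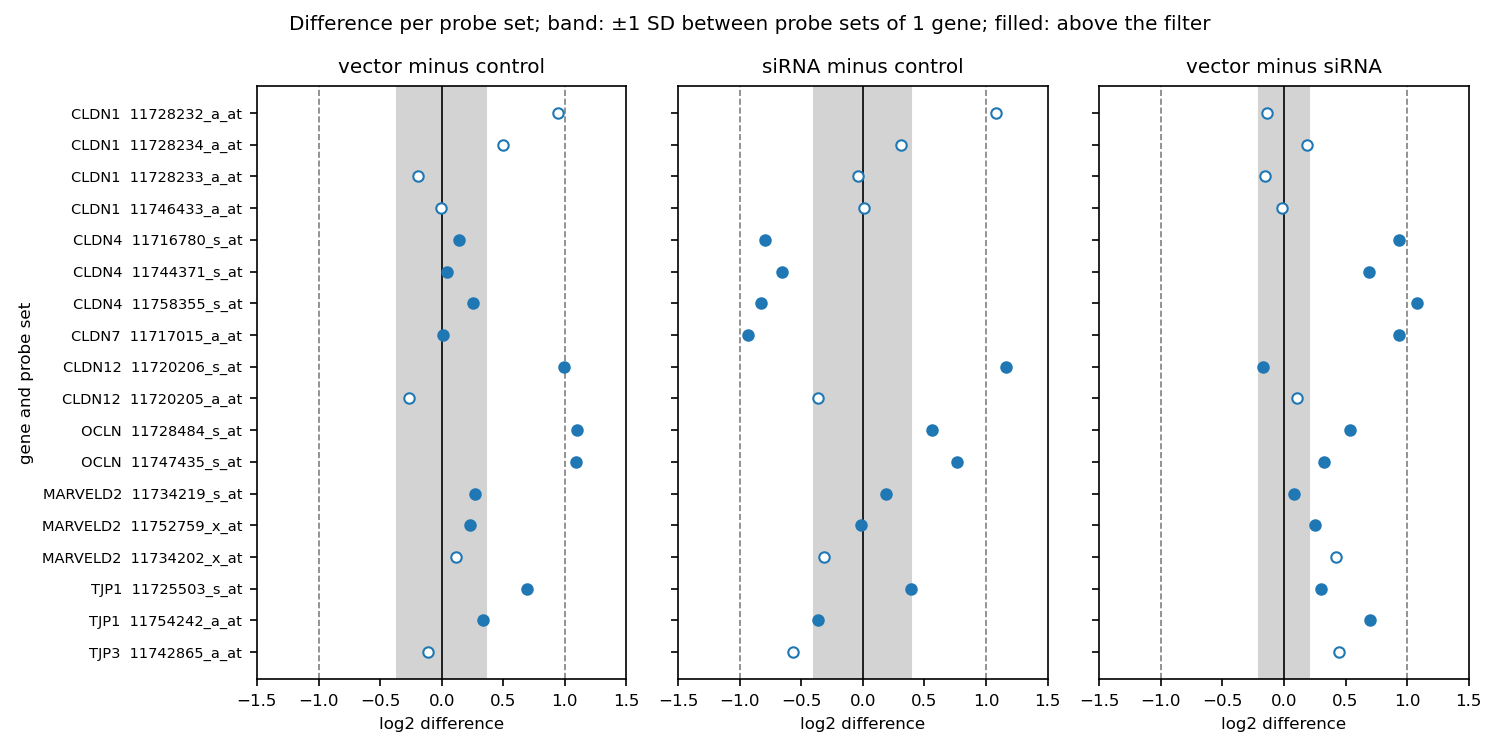
Log2 difference (horizontal axis) of each of the 18 probe sets (vertical axis) in the 3 comparisons, with filled points for probe sets above the filter and open points for those below it. The grey band is 1 SD between probe sets of a gene on each side of 0 (0.36, 0.39 and 0.21) and dashed lines mark 2-fold. All 3 points of CLDN4 and the point of CLDN7 lie inside the band when vector is compared with control and outside it in the other comparisons.

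For counts, each gene was represented by its brightest probe set, which left 6 of the 8 genes above the filter, CLDN4, CLDN7, CLDN12, OCLN, TJP1 and MARVELD2. CLDN1 and TJP3 fell below it. In vector minus control 1 of the 6, OCLN, was at least 2-fold higher, where 15.2% of all genes above the filter were, and 0 were lower, against 2.05%. At 1.5-fold 3 were higher (OCLN, CLDN12 and TJP1), against a background of 22.9%, and 0 lower, against 19.4%. The median of the 6 was 0.48, and the median of all genes above the filter was -0.18. In siRNA minus control 1 of the 6, CLDN12, was at least 2-fold higher, against 14.9%, and 0 lower, against 1.85%. At 1.5-fold 1 was higher, against 22.8%, and CLDN4 and CLDN7 were lower, against 18%. The median of the 6 was 0.29 beside -0.17 over all genes, but -0.02 with the mean over each gene's probe sets, so the group had no fixed direction in siRNA cells. The shares called at 2-fold were thus near the background of these comparisons, in which many genes differed.

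Between the arms, without the control array, fewer genes differed. In vector minus siRNA 0 of the 6 genes were at least 2-fold higher, against 1.73%, and 0 lower, against 1.85%. At 1.5-fold CLDN4 and CLDN7 were higher, 2 of 6 against 4.74% of all genes, and 0 were lower, against 4.95%. Of the 6, 5 were above 0 and CLDN12 was below, and the median was 0.42 beside 0.01 over all genes. Counted by probe set, 5 of the 18 were at least 1.5-fold higher in vector cells, against 3.96% of all probe sets with 1 symbol, and 0 lower, against 3.44%. They were the 3 of CLDN4, the 1 of CLDN7 and the dimmer one of TJP1, so they stand for 3 genes only. One probe set of CLDN4, at 1.08, passed 2-fold, against 1.24%, and 0 were 2-fold lower, against 1.09%. In this comparison 14 of the 18 lay above 0, and the 4 below 0 were 3 of CLDN1 and the bright one of CLDN12.

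The same counts by probe set were made against control. In vector minus control 2 of the 18, both of OCLN, were at least 2-fold higher, against 10.2%, and 0 lower, against 1.1%. At 1.5-fold 5 were higher, against 16%, and 0 lower, against 14.3%. In siRNA minus control 2 were at least 2-fold higher, the brightest of CLDN1 and of CLDN12, against 9.53%, and 0 lower, against 1.11%. At 1.5-fold 3 were higher, against 15.3%, and 4 were lower, against 12.7%, and these 4 were all the probe sets of CLDN4 and CLDN7.

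**Figure D3:**
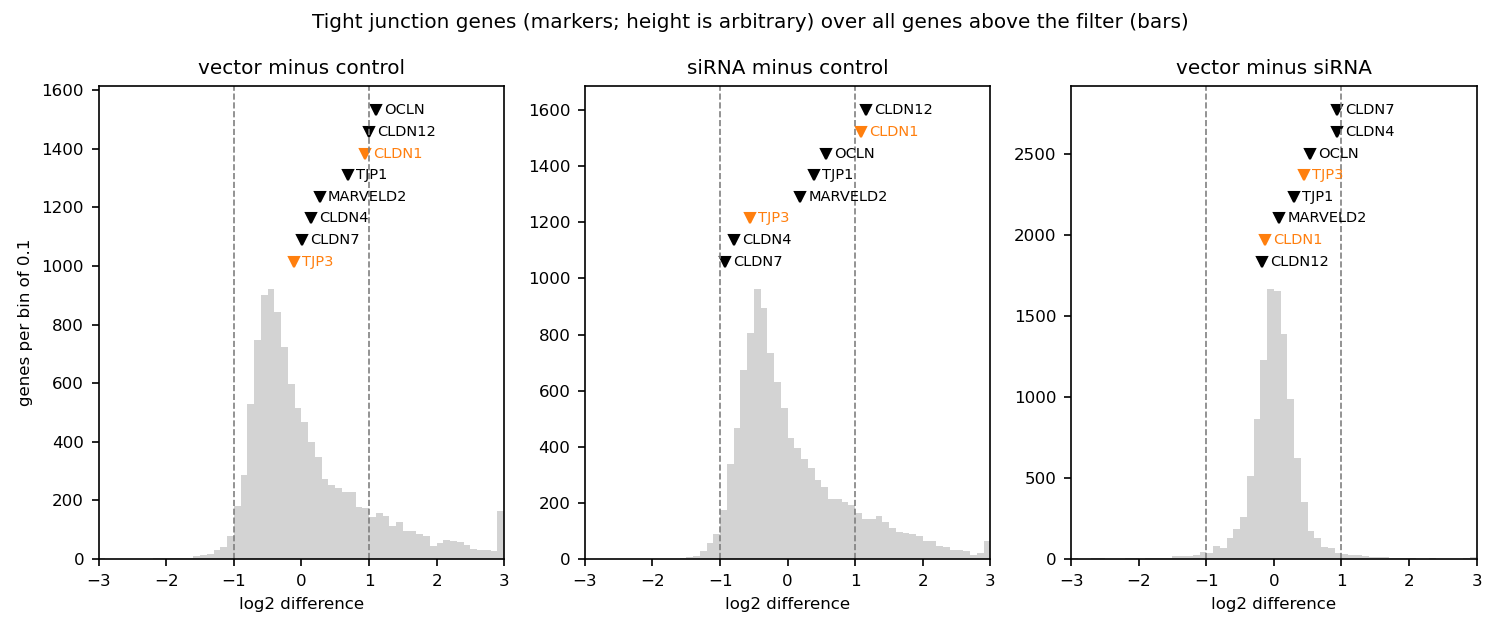
Number of genes above the filter per bin of 0.1 (bars, vertical axis) by log2 difference (horizontal axis) in the 3 comparisons, with values beyond 3 gathered in the outermost bins. Markers show the 8 genes by their brightest probe set, at an arbitrary height, black above the filter and orange below it, and dashed lines mark 2-fold. CLDN4 and CLDN7 lie at the left of the group for siRNA minus control and at its right for vector minus siRNA, at 0.93 and 0.94.

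CLDN12 had the largest range over the arrays among the 6 genes, 1.17. The genes above the filter with the most similar pair of differences from control, by Euclidean distance over the 3 arrays, were the septin gene SEPTIN2 (0.99 in vector and 1.16 in siRNA cells), the replication factor gene RFC3 (0.98 and 1.16), CNST (0.99 and 1.18) and SKIL (1.01 and 1.15). They lay within 0.021 of CLDN12, and of the other 10916 genes 41 lay within 0.1 and 305 within 0.25. Only a pair of differences was matched among that many genes, so such closeness says nothing of a link. The match was to the bright probe set of CLDN12, and the dim one differed from control the other way (-0.26 and -0.37).

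The gene neighbours of the claudins were set beside them. CLDN3, next to CLDN4, was dim on all arrays, at 3.38 in control, 3.45 with vector and 3.36 with siRNA. METTL27, on the other side of CLDN4, was 6.87, 6.34 and 6.43, lower than control in both arms. ELP5, next to CLDN7, was 8.27 in control, 7.78 with vector and 7.46 with siRNA, so it too was lowest in siRNA cells, by 0.81 against control, while vector minus siRNA was 0.32 against 0.94 for CLDN7. SLC2A4, a glucose transporter gene on the other side of CLDN7, was 6.62, 6.02 and 6.32, lowest in vector cells.

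The other genes of the junction came from a list of 76, of which 68 were measured and 47 lay above the filter. In vector minus control 8 of the 47 were at least 2-fold higher, or 17%, against the 15.2% of all genes, and 0 lower, against 2.05%, with a median of -0.20. In siRNA minus control 10 were higher, or 21.3%, against 14.9%, and 2 lower, or 4.26%, against 1.85%, with a median of -0.23. In vector minus siRNA 1 was higher, against 1.73%, and 1 lower, against 1.85%, with a median of 0.02. The shares between the arms were thus near the background. These medians lay close to those of all genes given above, while those of the 6 members were higher in each comparison. Members and lists were chosen with earlier results of these data known, so this contrast is no independent result. In siRNA minus control it also failed without probe sets ending in _x_at or _s_at. There the median of the 2 members left was -0.65, beside -0.20 over all genes. The median of the same 2 was 0.17 beside -0.21 in vector minus control, and 0.82 beside 0.02 in vector minus siRNA. With all probe sets of a gene averaged, 37 of the listed genes passed the filter and 4 of them, or 10.8%, were higher in each arm, against 12.8% of all genes for vector and 11.3% for siRNA.

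Among the other claudins 5 of 17 measured were above the filter. CLDN11, a claudin of myelin and testis, was 8.48 in control, 9.29 with vector and 9.69 with siRNA, but 0.25 in siRNA minus control with the mean over its probe sets against 1.20 on the brightest. CLDN20 was 6.80, 5.99 and 7.44, lower in vector than in siRNA cells by 1.45, the reverse of CLDN4 and CLDN7. Of the other membrane proteins CXADR, the coxsackievirus and adenovirus receptor, was 9.81 in control, 11.36 with vector and 11.59 with siRNA. Among plaque scaffolds MAGI3 stood 1.32 (vector) and 1.08 (siRNA) above control, or 0.44 and 0.31 with the mean over probe sets, and MPDZ was 0.57 and 1.08, the latter 0.98 after repeated quantile normalization and 0.89 with the mean over probe sets.

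The filter kept 15 polarity genes. In vector cells 4 of them were 2-fold or more above control, against 15.2% of all genes, and 0 below it, against 2.05%. In siRNA cells 4 were above, against 14.9%, and 2 below, against 1.85%. The medians were -0.21 and -0.23. PARD6B was 3.85 in control, 6.17 with vector and 6.04 with siRNA, a difference of 2.32 and 2.18, or 1.36 and 1.08 with the mean over probe sets, which takes it below the filter. Its control signal was below 5.28, so it passed only through the arms where it was high. The control signal lay below the filter for 18.2% of all genes counted as 2-fold higher with vector and for 18.4% with siRNA. PALS1 was 1.36 and 1.53 above control, the atypical protein kinase C gene PRKCI 1.00 (0.94 after repeated quantile normalization) and 1.27, and DLG1 1.30 and 1.30. DLG1 fell short of 2-fold in both arms when probe sets ending in _x_at or _s_at were left out (0.99 and 0.71) and with the mean over probe sets (0.96 and 0.93). The 2 lower genes, named after their values were seen, were PARD6A and CRB3, which encodes the apical protein that PALS1 binds. PARD6A was 6.25, 6.00 and 4.98, and CRB3 was 9.05, 8.83 and 8.02. Both were lowest on the siRNA array, and cyclic loess left them at -0.99 and -0.88 against control, short of 2-fold. PARD6A rested on 1 probe set, whose name ends in _s_at and whose siRNA signal lay below 5.28. With the mean over probe sets CRB3 was also lower with vector, by -0.52 against control, where CLDN4 and CLDN7 were nearly level. Its vector minus siRNA was then 0.51, and only 0.04 on the lowest of its probe sets. CRB3 was at -0.86 after centring on the median of all genes.

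Transcription factors known to act on junction genes were listed too, 15 in all, with 11 above the filter. This list was also chosen with earlier results of these data known, so its counts and medians are no independent result. Against control 1 of the 11 was at least 2-fold higher with vector, against 15.2% of all genes, and 0 with siRNA, against 14.9%. In these comparisons 0 were 2-fold lower, against 2.05% and 1.85%. The median in vector minus siRNA was 0.52 beside 0.01 over all genes. There 4 were at least 2-fold higher, against 1.73% of all genes, and 0 lower, against 1.85%. They were the epithelial factor gene ELF3 (1.46), the grainyhead genes GRHL1 (1.32, or 0.73 with the mean over probe sets) and GRHL3 (1.29), and KLF4 (1.14), a factor of barrier formation. ELF3 was 8.34 in control, 9.005 with vector and 7.55 with siRNA, and GRHL3 was 7.55, 8.23 and 6.94. Both were lowest in siRNA cells, but they also stood above control in vector cells, by 0.66 and 0.67, where CLDN4 and CLDN7 were nearly level. GRHL1 was lowest in control, at 8.21, 9.95 and 8.63, and KLF4, at 8.37, 9.36 and 8.22, was nearly level in control and siRNA cells, so for these the vector array stood apart, unlike for CLDN4 and CLDN7. GRHL2, a known activator of claudin genes, was level, at 6.98, 7.17 and 7.17. The repressor genes SNAI1, ZEB1 and ZEB2 lay below the filter on their means. SNAI2, on its 1 probe set, was 10.04 in control, 9.80 with vector and 10.54 with siRNA. Whether any of these factors bears on the junction genes was not tested.

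**Figure D4:**
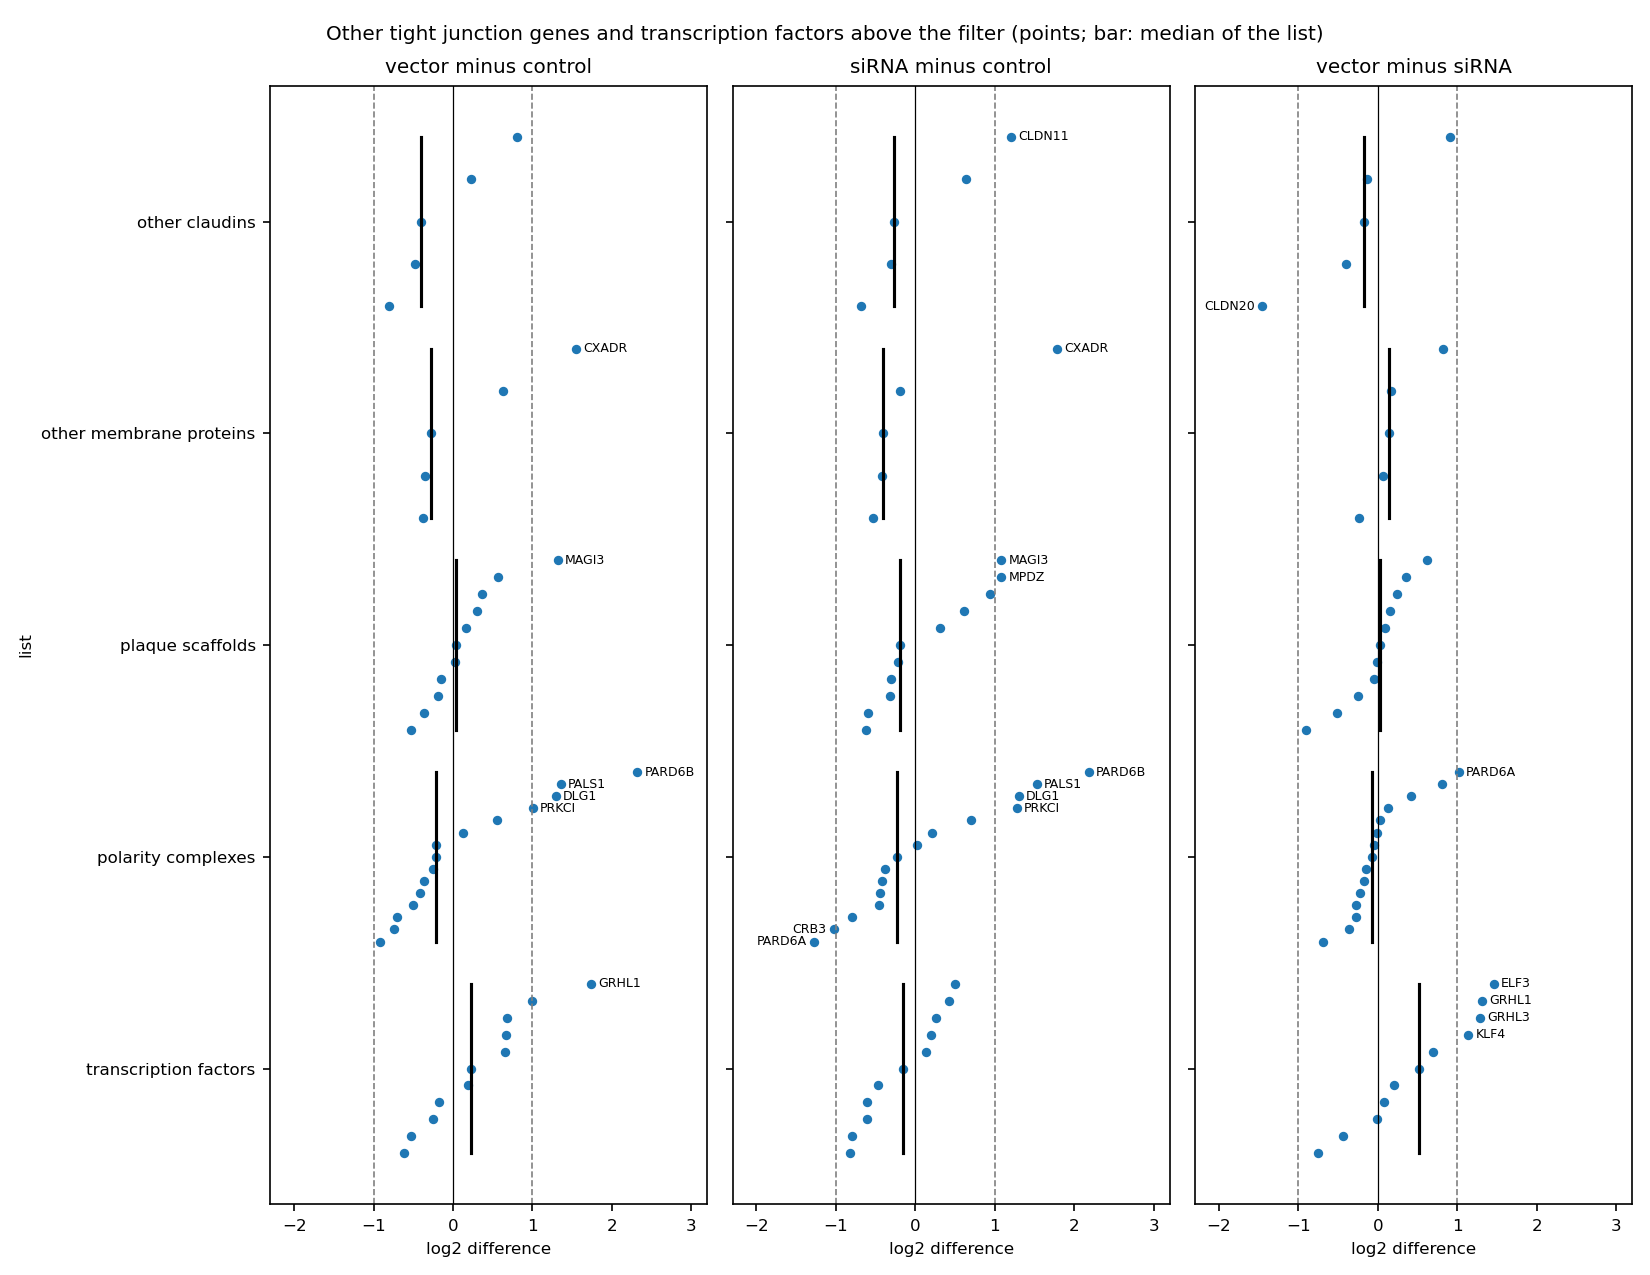
Log2 difference (horizontal axis) of the listed genes above the filter (points) in 5 lists (vertical axis) and 3 comparisons, with each list's median as a black bar and 2-fold marked by dashed lines. Names are given past 2-fold, and the transcription factors ELF3, GRHL1, GRHL3 and KLF4 lie past it in vector minus siRNA.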

How the data were processed

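Biotin-labelled RNA of KYSE180 cells was hybridised to 3 arrays, per the labels' protocols. The deposited values are log2 signals per probe set. The submitters' processing notes name RMA as the method, and the log2 scale was read from the range of the values. RMA's version, background step and chip definition were not given in the sources used here. This method compresses differences near background, so the size of those of dim genes is uncertain.

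Platform annotation gave 1 symbol for 44988 of 49293 probe sets (18132 genes). The probe set with the highest mean stood for a gene, and 10917 genes with a mean of at least 5.28 passed the filter. Log2 differences were described at 2-fold and 1.5-fold, with no test. Named genes were all members, and per list up to 4 genes past 2-fold or else the 2 most different. Of the transcription factors, GRHL2, SNAI1, SNAI2, ZEB1 and ZEB2 and the gene neighbours were added outside this rule. Regulators of junction assembly were counted among the other junction genes, but single results of that list are not reported here. Members and lists were chosen with earlier results of these data known. The steps were tested on simulated data, with planted changes larger than any difference of the members and the SD between probe sets as the only noise. That test does not show how firm the members' differences are. Alternatives were fold, filter, probe set rule and scaling. Python 3.11.15, pandas 2.3.3, numpy 2.4.6, matplotlib 3.10.9, R 4.3.3 and limma 3.58.1 (cyclic loess, span 0.4, 3 cycles) were used. Promoters came from RefSeq (GRCh38.p14), matched by symbol for 8 of 9 members.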

Additional observations from a re-analysis of the deposited data

How the results depend on the processing

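No paired analysis was possible because each group had 1 array. The differences of named genes gave 471 values under the alternatives, of which 446 moved by less than the SD between probe sets. Many of these could not move further. A change of filter alone leaves a gene's difference as it was, and centring shifts it by less than the SD. The 446 therefore does not measure how firm the values are. The sign turned in 14 of the 471, of which 3 were differences larger than that SD. CLDN12 turned from 1.17 to -0.37 in siRNA minus control and from 0.99 to -0.26 in vector minus control without probe sets ending in _x_at or _s_at, which leaves only its dim probe set. CXADR in vector minus siRNA turned from -0.23 to 0.08 with the mean over probe sets. Among the smaller ones was TJP1 in siRNA minus control, at 0.39 and -0.37 without _x_at and _s_at names. That setting kept 2 members above the filter, CLDN7 and TJP1, whose median in siRNA minus control was -0.65, and 0.82 in vector minus siRNA. In vector minus control the count of members 2-fold higher (1) was 0 there, with a filter at the 75th percentile, which leaves OCLN out, and after repeated quantile normalization. It was 2 after cyclic loess or centring and 3 at 1.5-fold. In siRNA minus control the count higher (1) was 2 with no filter and 0 with the mean over probe sets or without _x_at and _s_at names. The count lower (0) was 1 after repeated quantile normalization, CLDN7 at -1.01, and 2 at 1.5-fold. In vector minus siRNA the count higher (0) was 2 at 1.5-fold.

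Of the other junction genes, the 8 higher in vector than in control cells became 5 with the 75th percentile filter or without _x_at and _s_at names and 4 with the mean over probe sets. These settings left 28, 40 and 37 genes in place of 47, so the shares were 17.9%, 12.5% and 10.8% beside 17%. In the same comparison the count lower (0) became 6 at 1.5-fold and 1 after quantile normalization. For siRNA minus control the 10 higher (21.3%) became 6 (21.4%) with the 75th percentile filter and 4 (10.8%) with the mean over probe sets. The 2 lower became 7 at 1.5-fold, 1 with the 75th percentile filter, without _x_at and _s_at names or after centring, and 0 after cyclic loess. For vector minus siRNA the 1 higher became 5 at 1.5-fold, 2 with no filter and 0 with the 75th percentile filter, without _x_at and _s_at names or after quantile normalization, and the 1 lower became 3 at 1.5-fold and 0 with the 75th percentile filter. The median difference of all genes above the filter in vector minus control was -0.18, against -0.29 after quantile normalization and -0.03 after cyclic loess, so differences of that size have no fixed direction. Unless named here, the cause of a change between settings was not tested. The dim signals of CLDN1 and TJP3 and the number of arrays limit what these values can show.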
